A study of Mus musculus and Homo sapiens with 180 samples.

Results

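MOLM13 is a human acute myeloid leukaemia line that carries the MLL-AF9 fusion, and here it was treated with the DOT1L inhibitor SGC0946 after disruption of PCGF1. The organism label of these samples reads Mus musculus, but the table carries human gene identifiers. The comparison was made of 6 libraries, 3 from PCGF1 KO cells given 5 µM SGC0946 and 3 from PCGF1 KO cells given DMSO, the solvent. They were taken by their labels from the 27 libraries of the MOLM13 knockout experiment, in a series of 180 samples, and the labels give 72 h for both groups. Control cells carried Cas9 and a non-silencing guide, and the PCGF1 KO and BCOR KO cells carried Cas9 and a guide to the named gene. The methods describe such knockouts as polyclonal populations, so unedited cells may remain. The control and BCOR KO cells, each with 3 SGC0946 and 3 DMSO libraries at the same dose and time, are used only for comparison. The study describes its RNA-seq replicates as biological but not how they were set up. The p-values rest on the spread between replicate libraries, estimated over all 9 groups.

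PCGF1 and BCOR are subunits of PRC1.1, a variant Polycomb complex that places ubiquitin on histone H2A and is known for holding developmental genes silent. DOT1L methylates lysine 79 of histone H3 along transcribed genes, and MLL fusion proteins bring it to HOXA genes, MEIS1, MEF2C and other genes of leukaemic self-renewal. Inhibition of DOT1L in such cells is known to lower these genes and to raise genes of granulocytes and monocytes. The comparison asks which part of that response was present when PCGF1 was disrupted.

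The deposited columns of the PCGF1 KO carry the tag G2, and the study's oligonucleotide list has a second guide for human PCGF1; that the tag stands for this guide is not stated. The guide is shown because it defines the knockout, in lower case and followed in capitals by the adjacent NGG motif that Cas9 needs, as read from GRCh38.
PCGF1 guide 2: gaggtacgccatctccggAGG
Its 18 bases match the minus strand at chr2:74505591-74505608, inside the coding sequence of exon 7 of 9 of PCGF1, which lies on the minus strand between 74505043 and 74507695 in GENCODE 44. PCGF1 itself was low. Its CPM, the read counts scaled to a common library size by TMM, were 8.08, 3.36 and 4.72 with DMSO and 4.50, 6.61 and 6.02 with SGC0946. The groups overlapped, and PCGF1 did not pass the test (log2 fold change 0.10, SE 0.28, adjusted p by edgeR = 0.916). Counts from the 3′ end of a transcript do not check an edit in its coding sequence, so the knockout rests on the label.

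The 6 libraries held between 4283204 and 6330489 counts in genes, and 3 counts corresponded to between 0.472 and 0.710 CPM. Lines that name no gene took 36.3% to 42.2% of their reads, against up to 48.6% in a control DMSO library, replicate 2, that had the highest share of all 27. That library also stood apart from its replicates, with a chi-square per gene of 21.1 and 24.1 against them, where every other pair of replicates had 2.96 to 8.15. Mitochondrial genes took 7.05% to 8.41% of gene counts with DMSO and 7.26% to 8.82% with SGC0946. The labelled line was checked against its markers. All 12 myeloid leukaemia line markers on the list passed the filter, which was set over all 27 libraries. With DMSO, CD33 was at 47 CPM and PTPRC, the CD45 gene, at 77.9 CPM. LYZ and CLEC12A of the same list were near the floor, at 1.30 and 0.710 CPM. Of 13 erythroid markers 11, including HBB and ALAS2, were at 0 in all 6 libraries, and the list summed to 2.99 to 5.18 CPM with DMSO and 4.73 to 7.55 CPM with SGC0946. The 9 megakaryocyte markers summed to 1.35 to 1.45 and 0.947 to 1.77 CPM, and the 14 lymphoid markers to 20.4 to 24.9 and 25 to 31.5 CPM. In bulk RNA, fewer cells of a type and less RNA per cell cannot be told apart.

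SGC0946 changed 378 of 12140 genes tested in PCGF1 KO cells, or 3.11%. Of these, 266 genes rose (2.19% of those tested) and 112 fell (0.923%), and the median log2 fold change over all genes was 0.009. The change exceeded 2-fold for 85 of the genes that rose and for 27 of those that fell. Among genes at 10 CPM or more whose groups did not overlap, SP9, EFNA5, OTP and NR2F1 fell farthest and SORL1 and GAPT rose farthest. Over all 12140 genes tested, the groups did not overlap in 2536, or 20.9%. Leaving out 1 library brought the count down by more than 1.5 times in 2 cases, to 236 genes without DMSO replicate 2 and to 220 without SGC0946 replicate 2. Before adjustment, 1718 genes had a p under 0.05.

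**Figure D1:**
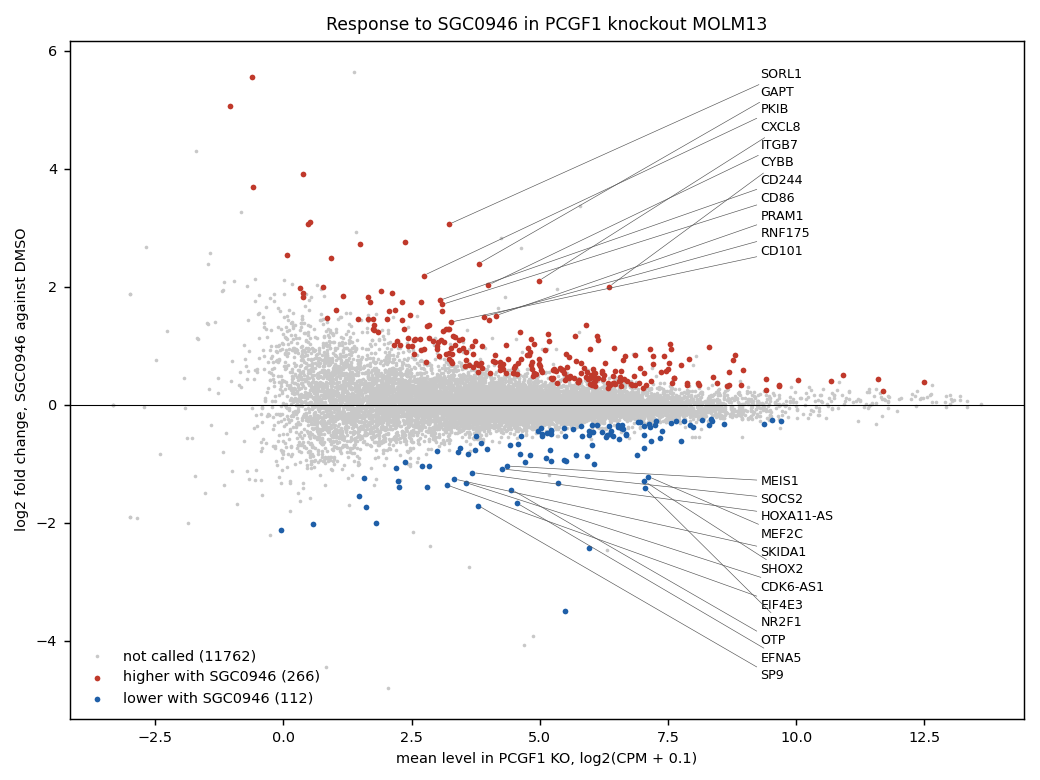
Each point is 1 of the 12140 genes tested, with its mean level over the 6 PCGF1 KO libraries on the x axis (log2 of CPM plus 0.1) and its log2 fold change with SGC0946 against DMSO on the y axis. Red marks the 266 genes that rose and blue the 112 that fell, and the names are taken from the 12 farthest in each direction that had at least 10 CPM and groups that did not overlap.

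MLL fusion target genes fell in PCGF1 KO cells, on a list chosen with earlier results of these data known. Of 28 tested members of a list of 30, 13 fell and 1 rose, against 0.923% and 2.19% of all genes, and 26 of the 28 had a fitted log2 fold change below 0 with a median of -0.38. MEF2C, a transcription factor of myeloid and lymphoid progenitors, stood at 193, 192 and 197 CPM with DMSO and at 88.5, 79.4 and 81.3 CPM with SGC0946. The groups were far apart, and the log2 fold change was -1.22 (SE 0.09, adjusted p by edgeR = 7.27e-10). MEIS1, the homeobox cofactor of HOXA9, went from 26.1, 29.6 and 26.8 CPM to 11.6, 14.3 and 14 CPM. SOCS2, an inhibitor of cytokine signalling, went from 25.3, 25.1 and 28.2 CPM to 8.52, 13.8 and 14 CPM. Neither gene had overlapping groups. The log2 fold change was -1.04 for MEIS1 (SE 0.19, adjusted p by edgeR = 9.97e-04) and -1.09 for SOCS2 (SE 0.17, adjusted p by edgeR = 1.26e-04).

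Other genes of this list, except CPEB2, fell to a smaller extent. PBX3, which pairs with HOX and MEIS proteins on DNA, had 163 ± 3.15 CPM (SD, n = 3) with DMSO and 97.5 ± 2.81 CPM with SGC0946. JMJD1C, a demethylase family member, had 58.1 ± 8.46 and 30.4 ± 4.51 CPM, and CDK6, a kinase that drives entry into S phase, had 261 ± 19.4 and 170.0 ± 8.49 CPM. In each of these 3 genes the lowest DMSO library stood above the highest SGC0946 library. The log2 fold changes were -0.74 for PBX3, -0.93 for JMJD1C and -0.62 for CDK6, and all 3 passed the test in each of the 6 fits that left out 1 library. CPEB2 (-1.40), REEP3 (-0.87), IGF2BP2 (-0.53), FLT3 (-0.41) and MBNL1 (-0.34) completed the genes outside the HOXA cluster that fell. IGF2BP2, FLT3 and MBNL1 lost the call in 2, 1 and 2 of those 6 fits. The list member that rose was LPXN, a focal adhesion adaptor, at 19.4 ± 1.81 CPM with DMSO and 39.7 ± 1.89 CPM with SGC0946 (log2 fold change 1.03, SE 0.14, adjusted p by edgeR = 1.49e-05). With 1 library left out, the number of list members that fell ranged from 9 to 14.

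EMB, a listed target that encodes a surface glycoprotein, did not pass the test at 111 ± 9.85 CPM with DMSO and 95.7 ± 6.37 CPM with SGC0946 (log2 fold change -0.21, SE 0.09, adjusted p by edgeR = 0.265). BCL2, MYB, ZEB2, RUNX2 and TCF4 did not pass either, with log2 fold changes between -0.29 and -0.08. Of 10 tested genes that the study had singled out in murine cells, 2 fell, MEIS1 and JMJD1C, and none rose. The shares over all genes were 0.923% and 2.19%, and both genes are also on the MLL fusion list.

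**Figure D2:**
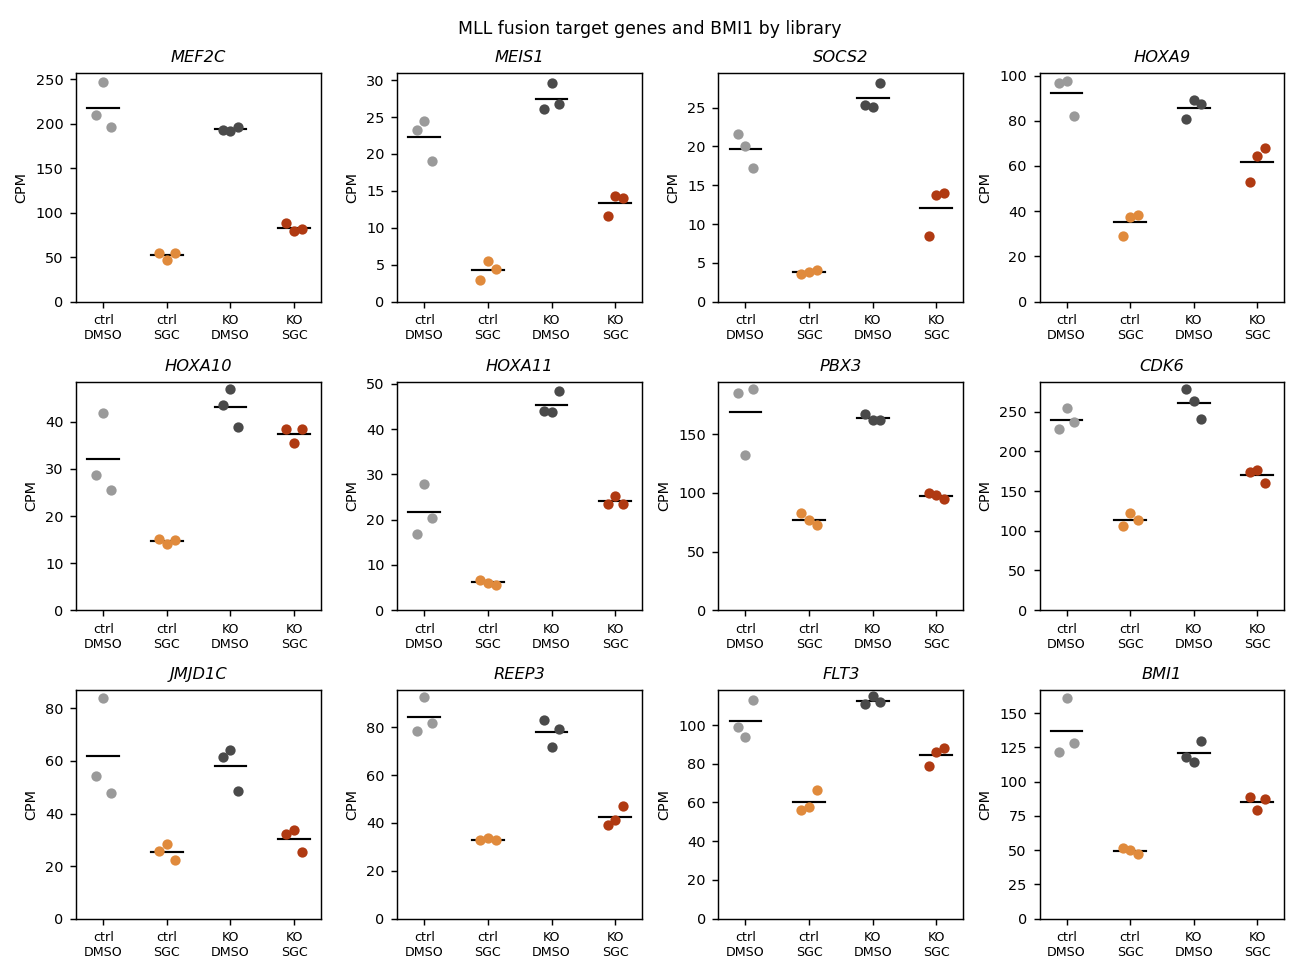
Levels of 11 MLL fusion target genes and of BMI1 in CPM (y axis, from 0), with 1 point for each library and a line at the mean of 3 libraries; ctrl is the control guide, KO the PCGF1 guide and SGC is SGC0946. In MEF2C the PCGF1 KO libraries with SGC0946 sit between 79.4 and 88.5 CPM and those with DMSO between 192 and 197 CPM, while the 3 HOXA10 points of each PCGF1 KO group lie within 35.6 to 46.9 CPM.

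Across the HOXA cluster on chromosome 7, 7 of the genes were tested. Of these 3 fell, HOXA3, HOXA9 and HOXA11, against 0.923% of all genes. HOXA9, the homeobox gene most tied to MLL leukaemia, stood at 80.6, 89.2 and 87.5 CPM with DMSO and at 53, 64.5 and 68.0 CPM with SGC0946. The groups did not overlap, and the log2 fold change was -0.47 (SE 0.11, adjusted p by edgeR = 0.0104), a call that was lost without SGC0946 replicate 1. HOXA11 changed more, from 43.9, 43.7 and 48.3 CPM to 23.4, 25.2 and 23.5 CPM (log2 fold change -0.91, SE 0.17, adjusted p by edgeR = 0.00171). HOXA10, which lies between them and overlaps HOXA9, had 43.5, 46.9 and 38.9 CPM with DMSO and 38.6, 35.6 and 38.4 CPM with SGC0946. Its groups did not overlap but lay close together, and it did not pass the test (log2 fold change -0.20, SE 0.13, adjusted p by edgeR = 0.547). HOXA13 had 11.4, 6.95 and 10.1 CPM against 6.63, 6.29 and 6.90 CPM, also without a call (-0.53, SE 0.22, adjusted p by edgeR = 0.255). HOXA3 and HOXA5 were low, at a mean of 3.97 and 4.77 CPM with DMSO and 1.40 and 1.80 CPM with SGC0946, and of these HOXA3 passed. HOXA11-AS, an antisense RNA of HOXA11, fell from 17.6 ± 1.64 to 7.86 ± 1.12 CPM (log2 fold change -1.15). CDK6-AS1, antisense to CDK6, fell too (-1.32). The strand setting of the counting is not stated, so reads from the stretch where such a pair overlaps cannot be told apart. HOXA11 and HOXA11-AS overlap only from 27184507 to 27185232, and CDK6 and CDK6-AS1 only from 92836367 to 92836573. Both overlaps lie at the 5′ ends of the genes, while the libraries were sequenced from 3′ ends. On the minus strand, the annotated spans of HOXA9 and HOXA10 overlap from 27170605 to 27175180, which includes the 3′ end of HOXA10. HOXA5 lies inside the span of HOXA3. How reads shared by such same-strand pairs were counted is not stated.

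Among the 12 genes that fell farthest at 10 CPM or more, 7 were neither on the MLL fusion list nor antisense to one of its members, and several encode developmental transcription factors. EFNA5, a ligand of Eph receptors, went from 36.7, 39 and 31.5 CPM to 10.7, 10.9 and 11.9 CPM (log2 fold change -1.67, SE 0.18, adjusted p by edgeR = 5.15e-07). SHOX2, a homeobox factor of limb and heart development, went from 190.0, 198 and 172 CPM to 82.8, 83.7 and 61.4 CPM (-1.3, SE 0.17, adjusted p by edgeR = 8.17e-06). In both genes the 3 treated libraries lay well under the 3 untreated ones, though groups that do not overlap were required for naming them. EIF4E3, a cap-binding translation factor, fell by 1.36 and SKIDA1 by 1.26 on the log2 scale. All 4 kept the call in each fit that left out 1 library.

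SP9, OTP and NR2F1, transcription factors of the developing nervous system, fell in PCGF1 KO cells and were close to absent from control cells. NR2F1 stood at 194, 208 and 179 CPM in PCGF1 KO cells with DMSO and at 84.0, 69.4 and 63.7 CPM with SGC0946, against 0.163 to 1.2 CPM in control DMSO libraries. OTP stood at 27.1, 33.9 and 34.0 CPM and then at 12.5, 12 and 10.6 CPM, and was at 0 in all 3 control DMSO libraries. SP9 went from 18.4, 18.4 and 26.3 CPM to 8.28, 3.93 and 7.61 CPM, with at most 0.401 CPM in control DMSO libraries. Groups of PCGF1 KO cells that do not overlap were a condition for naming these 3 genes. The log2 fold changes of NR2F1, OTP and SP9 were -1.42, -1.44 and -1.71 (SE 0.16, 0.23 and 0.22, adjusted p by edgeR = 1.41e-06, 3.55e-04 and 1.8e-05). At these control levels a response of control cells could not be measured. In BCOR KO cells NR2F1 went from 57.4 to 21.6 CPM and SP9 from 13.3 to 4.74 CPM. OTP had 0.419 CPM there with DMSO and 0.585 CPM with SGC0946. MDK, a growth factor, and LINC01305, a noncoding RNA next to SP9, also fell in PCGF1 KO cells and had a mean under 2 CPM in control DMSO libraries. MDK went from 31.1 to 17.4 CPM and LINC01305 from 15.5 to 8.60 CPM in PCGF1 KO cells. In BCOR KO cells MDK went from 11.8 to 5.57 CPM and LINC01305 from 12.6 to 7.24 CPM. Both were chosen after their values were seen.

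With 1 library left out, 62 to 105 genes were called lower. In 2 of the 112 genes that fell, 1 DMSO library stood far above the other 5 PCGF1 KO libraries. The processed pseudogenes RPL17P6 and RPS26P47 had 286 and 222 CPM in DMSO replicate 2 and between 4.02 and 26.4 CPM in the other 5 PCGF1 KO libraries, so their groups overlapped and they were left out of the 12 named. Both derive from ribosomal protein genes, and reads may be split between such copies and their parents.

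Genes of granulocytes and monocytes rose in PCGF1 KO cells, on lists chosen with earlier results of these data known. Of 17 tested monocyte and macrophage genes on a list of 26, 8 rose and none fell, against 2.19% and 0.923% of all genes, and all 17 had a fitted log2 fold change above 0, with a median of 0.72. Of 13 primary granule genes, 5 rose and none fell, with a median of 0.30. Of 6 tested genes of secondary granules and mature neutrophils, 2 rose, CYBB and SLPI, with a median of 0.88; another 11 genes of this list, among them LTF, LCN2 and OLFM4, were at 0 in all 6 libraries. With 1 library left out these counts were 5 to 7, 3 to 5 and 2 to 3.

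CYBB, the catalytic subunit of the phagocyte NADPH oxidase, stood at 30.9, 36.8 and 29.9 CPM with DMSO and at 135, 132 and 123 CPM with SGC0946 (log2 fold change 2.0, SE 0.11, adjusted p by edgeR = 4.42e-12). SLPI, a secreted inhibitor of neutrophil proteases, went from 41.7, 39.9 and 46.4 CPM to 88.8, 94.7 and 106 CPM (1.17, SE 0.09, adjusted p by edgeR = 1.13e-09). MPO, the myeloperoxidase of primary granules, went from 30.5, 35.9 and 34.6 CPM to 76.0, 87.9 and 93.5 CPM (1.35, SE 0.11, adjusted p by edgeR = 2.54e-09). In all 3 genes the lowest treated library stood above the highest untreated one. MS4A3, a membrane protein of myeloid progenitors, rose from 42.8 ± 8.95 to 82.9 ± 8.06 CPM and RNASE3, the eosinophil cationic protein, from 73.4 ± 6.40 to 129.6 ± 8.39 CPM, with log2 fold changes of 0.95 and 0.82. CTSG (0.36) and CST7 (0.73) rose too, but lost the call in 5 and 4 of the 6 fits that left out 1 library. Not every granule gene took part. ELANE and PRTN3, serine proteases of the granules at 1086 and 1140.1 CPM with DMSO, had log2 fold changes of 0.30 and 0.13 without a call, and AZU1 had -0.38.

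Among monocyte genes, CCR2, a chemokine receptor, went from 75.6, 77.6 and 97.0 CPM to 141, 146 and 161 CPM (log2 fold change 0.84, SE 0.11, adjusted p by edgeR = 1.95e-05). MS4A6A, a membrane protein of monocytes, went from 72.7, 72.4 and 74.0 CPM to 122, 129 and 119 CPM (0.76, SE 0.09, adjusted p by edgeR = 1.41e-06). LYZ, the lysozyme gene, stayed low throughout, at 1.24, 1.57 and 1.1 CPM with DMSO and 8.28, 7.08 and 11.2 CPM with SGC0946 (2.76, SE 0.40, adjusted p by edgeR = 5.1e-05). None of the 3 had overlapping groups. CD86, a costimulatory ligand (1.70), CD36, a scavenger receptor (1.08), CSF1R, the receptor for macrophage colony-stimulating factor (0.96), ITGAX (0.92) and TLR4 (0.68) rose as well. CD36, CSF1R, ITGAX and TLR4 lost the call in 1, 3, 4 and 5 of the fits that left out 1 library. MNDA and CTSS had log2 fold changes of 0.13 and 0.11 without a call, and CD68, FCN1, CD163, CD300E and MRC1 were at 0 in all 6 libraries. Nothing can be read of CD68 from this, since the counting is not fully described.

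**Figure D3:**
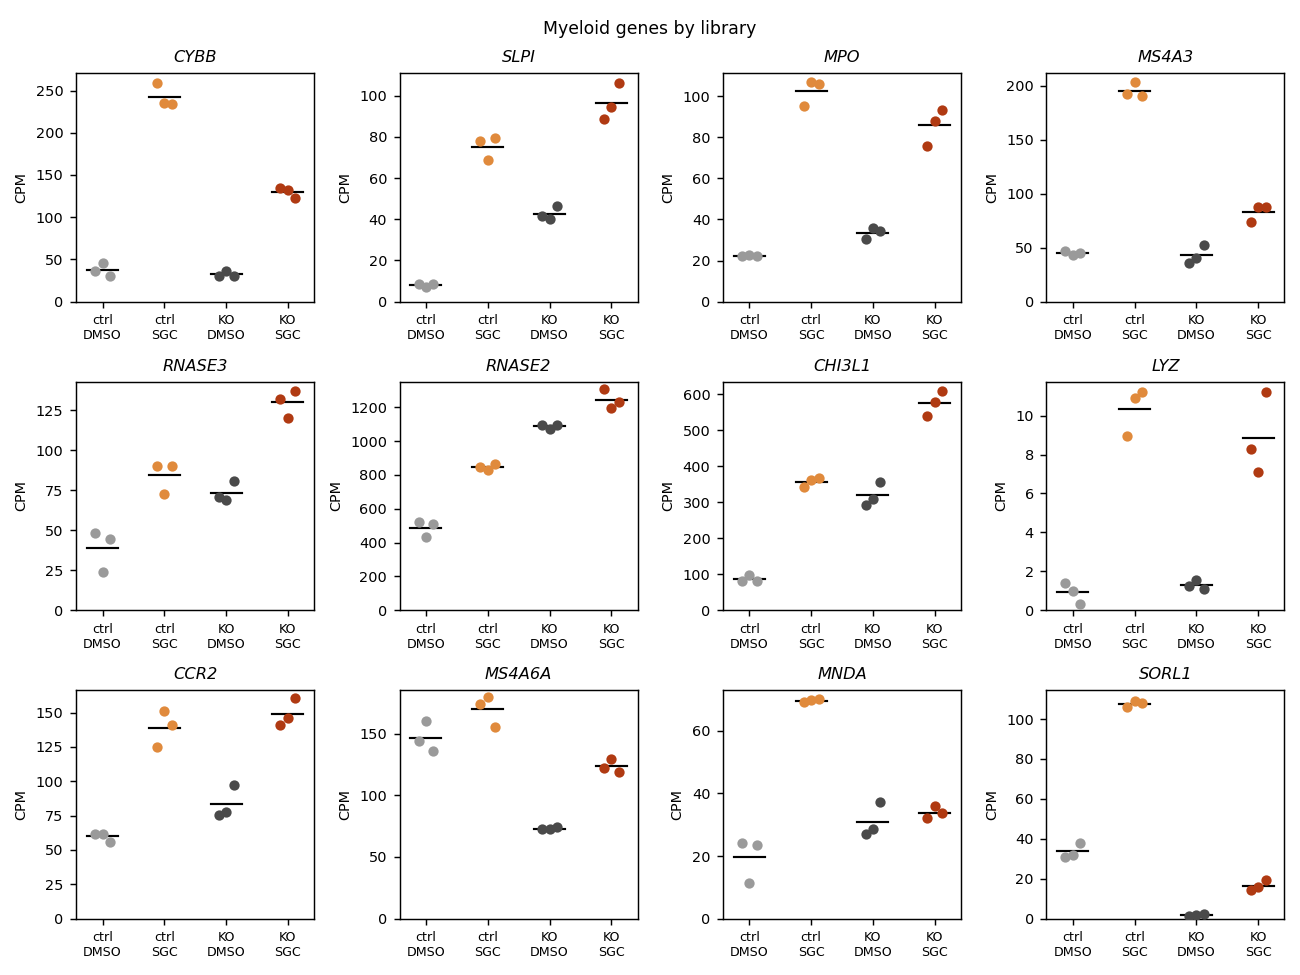
Levels of 12 myeloid genes in CPM (y axis, from 0) with 1 point for each library and a line at the mean of 3 libraries; ctrl is the control guide, KO the PCGF1 guide and SGC is SGC0946. CYBB stands at 123 to 135 CPM in PCGF1 KO cells with SGC0946, above the PCGF1 KO libraries with DMSO and below the control libraries with SGC0946, and MNDA overlaps between the PCGF1 KO groups.

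Of 12 genes that rose farthest at 10 CPM or more, several encode surface proteins of leukocytes. SORL1, a sorting receptor, went from 1.24, 2.02 and 2.52 CPM to 14.4, 16 and 19.3 CPM (log2 fold change 3.06, SE 0.22, adjusted p by edgeR = 4.02e-10). GAPT, an adaptor that binds GRB2, went from 5.80, 3.36 and 4.09 CPM to 23.9, 22.2 and 23.7 CPM (2.39, SE 0.19, adjusted p by edgeR = 2.54e-09). ITGB7, an integrin subunit of homing lymphocytes and monocytes, went from 6.22, 6.28 and 6.14 CPM to 26.0, 23.8 and 26.7 CPM (2.03, SE 0.16, adjusted p by edgeR = 1.13e-09). The treated and untreated libraries of these 3 genes were far apart, though groups that do not overlap were required for naming them. PKIB, an inhibitor of protein kinase A (2.19), CD244, a receptor of the SLAM family (1.77), PRAM1, an adaptor of neutrophils (1.51), RNF175 (1.49) and CD101, an immunoglobulin superfamily protein (1.40), followed. CXCL8, the neutrophil chemokine, had 17.0, 15.7 and 4.09 CPM with DMSO and 54.7, 50.8 and 46 CPM with SGC0946 (2.10, SE 0.50, adjusted p by edgeR = 0.0153); its spread with DMSO was wide, and the call was lost without DMSO replicate 3 or without SGC0946 replicate 2.

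Of 20 tested myeloid transcription factors, 1 rose, against 2.19% of all genes. CEBPE, a regulator of late granulocyte genes, went from 2.92 ± 0.588 to 5.78 ± 1.49 CPM (log2 fold change 1.02, SE 0.27, adjusted p by edgeR = 0.0294), and it missed the threshold in 4 of the 6 fits without 1 library. SPI1 (0.41), IRF8 (0.31), RUNX1 (0.29) and GFI1 (0.01) did not pass, and CEBPA was at 0 in all 6 libraries, so nothing can be read of it. Of 7 tested S100 genes 1 rose, against 2.19% of all genes. S100A6 went from 124 ± 7.82 to 163 ± 3.64 CPM, a call lost in 3 of the fits without 1 library. S100A8 and S100A9 stood between 0.710 and 3.32 CPM in both groups, without a call. Of 4 tested MHC class II genes 2 rose, against 2.19% of all genes. CD74, the invariant chain, went from 75.2, 76.9 and 77.8 CPM to 111, 112 and 118 CPM (0.57, SE 0.08, adjusted p by edgeR = 3.99e-05), and HLA-DRA had 1, 2 and 1 counts with DMSO and 9, 12 and 5 counts with SGC0946. The HLA-DRA call was lost in 4 of the 6 fits without 1 library.

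With 3.11% of all genes called, few calls or none can be looked for in lists of about 20 genes, so the counts of 0 that follow are not results about these lists. None of 20 DNA replication genes and none of 21 mitosis genes passed in either direction, with medians of -0.09 and 0.01 on the log2 scale; MKI67, the proliferation antigen, had a log2 fold change of 0.08 and PCNA, the replication clamp, 0.04. None of 17 MYC and ribosome biogenesis genes, 14 BCL2 family genes and 21 cholesterol synthesis genes passed, with medians of -0.17, 0.08 and -0.11. At an unadjusted p under 0.05 in edgeR the 5 lists had 0, 1, 4, 7 and 2 genes, in the order given, and DESeq2 and limma-voom called none. Of 9 tested D cyclin and CDK inhibitor genes CDK6 alone fell, and CCND2, a D cyclin at 199.6 CPM with DMSO, had -0.23 without a call. Of 22 genes of the ATF4 amino acid response, 4 fell and none rose, against 0.923% and 2.19% of all genes, with a median of -0.29: PSAT1 and PSPH, enzymes of serine synthesis, at -0.61 and -0.48, GPT2, an alanine transaminase, at -0.49, and CBS, of cysteine synthesis, at -0.55. PSAT1 stood at 171, 168 and 186 CPM with DMSO and at 109, 112 and 122 CPM with SGC0946, and it alone of the 4 kept its call in every fit that left out 1 library. ATF4 itself had -0.18 without a call. The ATF4 list too was chosen with earlier results of these data known. With 2.19% of all genes higher, 2 genes of 22 tested lysosomal ones rose, GRN (0.98) and GLB1 (0.34), of 12 interferon response genes IFI6 (1.13), and of 10 NF-kB and chemokine genes CXCL8 and CXCL16 (1.75); GLB1, IFI6 and CXCL16 lost the call in 5, 4 and 3 of those fits.

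Chromatin genes were taken in lists of 10 to 23 tested members. With 3.11% of all genes called, few calls or none can be looked for in each, so their counts are not results about these lists. Among them, none of the 10 PRC1.1 subunits passed in edgeR, DESeq2 or limma-voom, and 2 had an unadjusted p under 0.05. BCOR stood at 66.1, 64.3 and 58.1 CPM with DMSO and at 50.7, 56.8 and 54.9 CPM with SGC0946 (log2 fold change -0.21, SE 0.09, adjusted p by edgeR = 0.268), and DOT1L, the target of the drug, at 56, 44.2 and 46.8 CPM and at 46.6, 40.4 and 44.4 CPM (-0.16, SE 0.10, adjusted p by edgeR = 0.503). The DOT1L groups overlapped and the BCOR groups did not. Of 21 other Polycomb genes BMI1, the PCGF4 subunit of canonical PRC1, was the only one called. It fell from 118, 114 and 129.7 CPM to 88.5, 79.6 and 87.3 CPM (-0.51, SE 0.09, adjusted p by edgeR = 0.00125). EZH2, EED and SUZ12, of PRC2, had -0.21, -0.31 and 0.01 without a call. Of 23 tested genes of DOT1L, elongation and MLL complexes AFF3, a relative of the elongation scaffold AFF4, rose from 13.3 ± 0.657 to 27 ± 3.76 CPM (1.01, SE 0.16, adjusted p by edgeR = 2.61e-04), and KMT2A and MEN1 had -0.07 and 0.02 without a call.

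**Figure D4:**
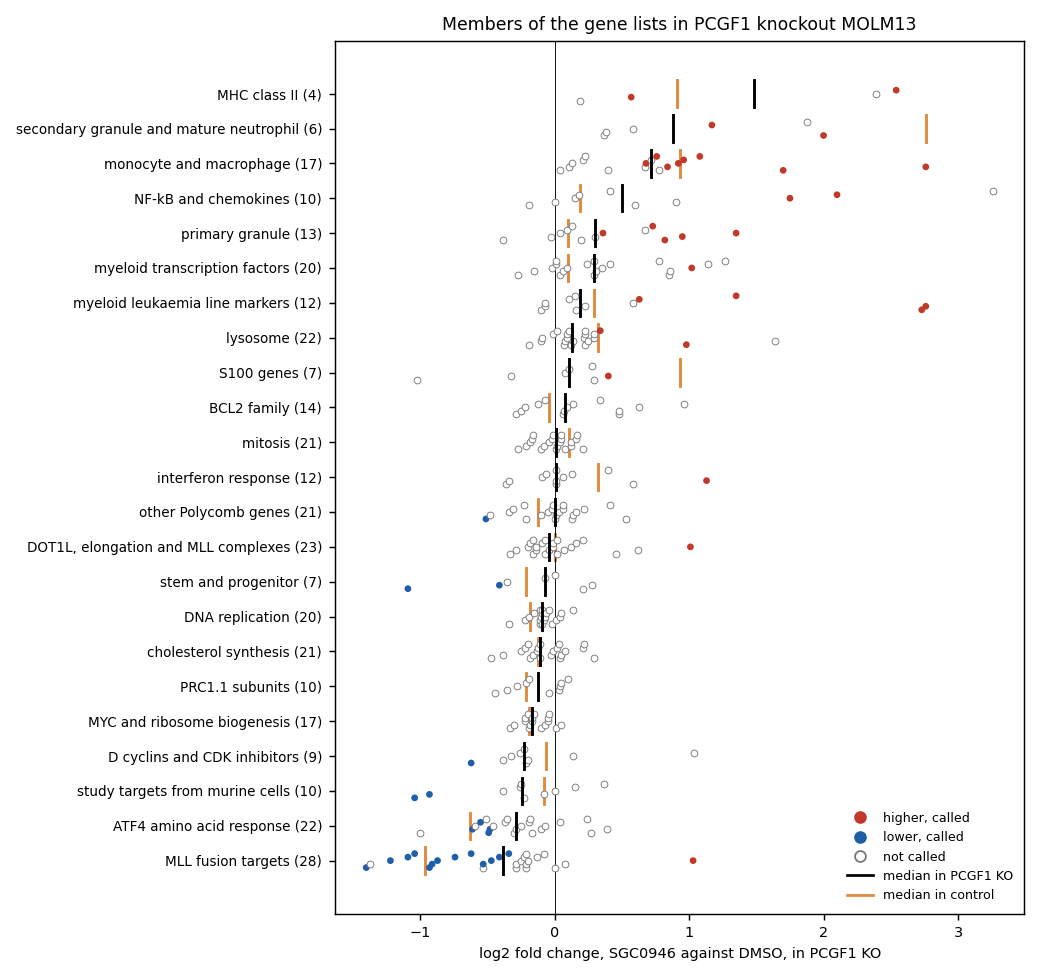
Each row is a gene list with its number of tested genes in brackets, and each point is a member placed by its log2 fold change with SGC0946 in PCGF1 KO cells (x axis), filled where it was called. Black lines are the list's median in PCGF1 KO cells and orange lines its median in control cells, which are -0.38 and -0.96 for the MLL fusion targets and 0.88 and 2.76 for genes of secondary granules and mature neutrophils.

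In control cells, SGC0946 changed 1578 genes, 13.0% of those tested, of which 878 rose (7.23%) and 700 fell (5.77%). Scaling by library size alone moved this split to 724 and 927, and that of PCGF1 KO cells to 223 and 136. Most genes changed in PCGF1 KO cells were also changed in control cells. Of the 112 that fell in PCGF1 KO cells 77 fell in control cells (68.8%), which is 11.0% of the 700, and of the 266 that rose 202 rose in control cells (75.9%), which is 23.0% of the 878. The remaining genes of the PCGF1 KO response included 95 that were not called in control cells. In only 2 of those, MS4A6A and MACROH2A1, a histone variant, did the test of the difference between the 2 responses pass, and MS4A6A lost it in 6 of the 12 fits that left out 1 library. The rest of the 95 are not shown to differ. Of 325 genes lowered in control cells by more than 0.5 on the log2 scale, 55 fell in PCGF1 KO cells (16.9%, against 0.923% of all genes) and 280 had a fitted value below 0 there. Of 599 genes raised by the same measure, 169 rose in PCGF1 KO cells (28.2%, against 2.19%).

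By the interaction test, 79 genes (0.651% of those tested) responded differently in PCGF1 KO and control cells. The difference was positive in 27 genes (0.222%) and negative in 52 (0.428%). All 52 had risen in control cells and had a log2 fold change nearer to 0 in PCGF1 KO cells, with medians of 1.81 (control) and 0.32 (PCGF1 KO), and 16 of them were still called higher. Of the 27, 24 had fallen in control cells, 7 were called lower in PCGF1 KO cells and 6 higher, with medians of -0.76 and 0.01. Without control DMSO replicate 2, the library that stood apart, 59 genes had a called difference, 52 of them among the 79. Of 34 named genes with a called difference 10 lost it there: MEIS1, HOXA10, MS4A6A, BARX1, SPIB, ENPP2, PRAM1, CKAP4, TFAP2A and ATP6V1C2. When only the 4 groups compared were fitted, 18 of the 79 differences remained, and 12 of the 34 named: MEF2C, BMI1, SLPI, CHI3L1, MNDA, MMP25, MS4A3, MPO, TBC1D4, TFAP2A, S100A8 and S100A9. In the DMSO libraries, which also enter the difference, the mean level was higher in PCGF1 KO than in control cells for 48 of the 52 genes and for 7 of the 27.

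**Figure D5:**
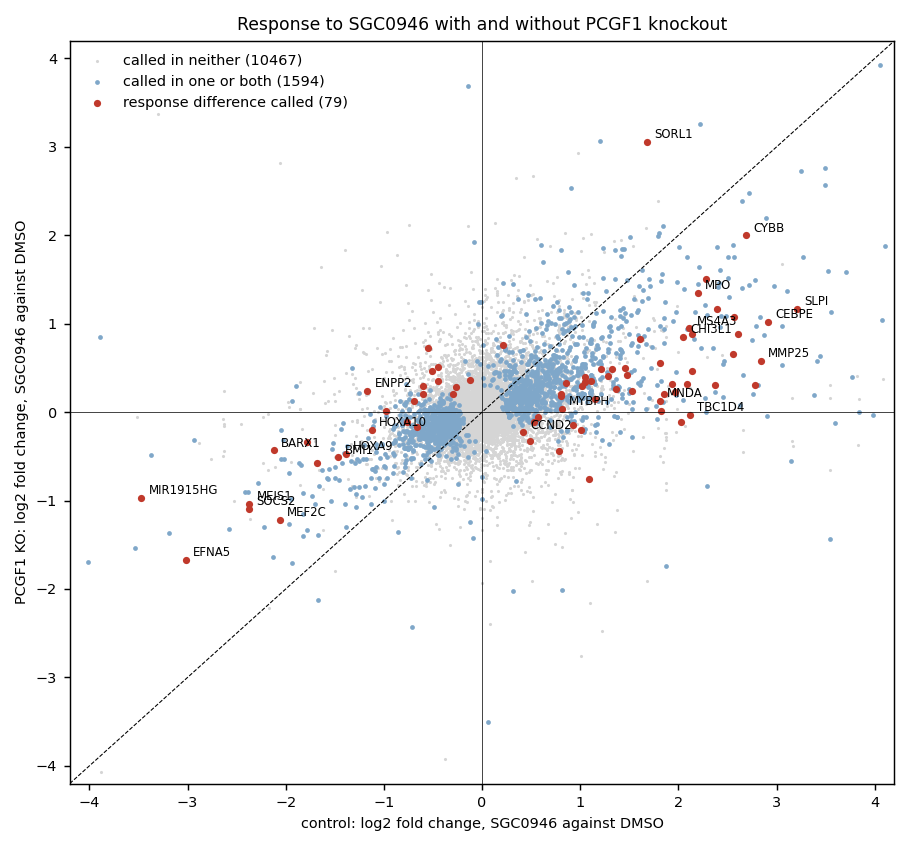
Each point is a gene, with its log2 fold change under SGC0946 in control cells on the x axis and in PCGF1 KO cells on the y axis; the dashed line marks equal responses and 16 genes lie outside the plotted range. Red marks the 79 genes whose responses differed, most of which lie between the dashed line and the horizontal line at 0.

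Several MLL fusion targets fell less in PCGF1 KO cells than in control cells. In control cells 20 of the 28 tested fell, against 5.77% of all genes, with a median of -0.96. The response difference was called positive in 5 of the 28, against 0.222% of all genes. It was 1.34 for MEIS1 (SE 0.29, adjusted p by edgeR = 0.0236) and 0.84 for MEF2C (SE 0.13, adjusted p by edgeR = 5.97e-04). For SOCS2, HOXA9 and HOXA10 it was 1.27, 0.93 and 0.92. With SGC0946, control libraries had 2.99, 5.45 and 4.38 CPM of MEIS1 and PCGF1 KO libraries 11.6, 14.3 and 14 CPM. For HOXA10 these were 15.1, 14.1 and 14.9 CPM against 38.6, 35.6 and 38.4 CPM. The treated PCGF1 KO libraries were above all treated control libraries in both genes. The differences of HOXA9 and MEF2C passed in each of the 12 fits that left out 1 library, although that of HOXA9 was lost when only the 4 groups compared were fitted, and those of MEIS1, SOCS2 and HOXA10 were lost in 7, 4 and 3 of them. BMI1 differed by 0.96 (SE 0.13, adjusted p by edgeR = 2.3e-04), having gone from 137 to 49.5 CPM in control cells. The other 9 targets that fell in PCGF1 KO cells had no called difference; for CDK6 it was 0.46 (SE 0.13, adjusted p by edgeR = 0.121), for JMJD1C 0.35 (SE 0.26, adjusted p by edgeR = 0.728) and for MBNL1 -0.02 (SE 0.11, adjusted p by edgeR = 0.97).

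The 6 largest positive differences at 10 CPM or more were in MIR1915HG, BARX1, SPIB, ENPP2, SORL1 and EFNA5. MIR1915HG, a noncoding host gene of a microRNA, fell in control cells from 12.9, 12.8 and 13.6 CPM to 1.5, 1.32 and 0.70 CPM, while in PCGF1 KO cells it had 7.46, 4.71 and 11.0 CPM with DMSO and 6.39, 3.30 and 2.83 CPM with SGC0946. BARX1, a homeobox factor, differed by 1.69, and its control DMSO libraries were spread from 39.9 to 115 CPM with replicate 2 at the top; without that replicate the difference was 1.15 and not called. SPIB, a relative of the factor SPI1, and ENPP2, a secreted phospholipase, differed by 1.43 and 1.41 and lost the call in 8 and 9 of the 12 fits that left out 1 library. EFNA5 differed by 1.35 and kept it in all 12, but not when only the 4 groups compared were fitted. SORL1 rose in both, from 33.7 to 108 CPM in control and from 1.93 to 16.6 CPM in PCGF1 KO cells, by 1.68 and 3.06 on the log2 scale, and the difference of 1.38 was lost without PCGF1 KO DMSO replicate 1.

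Several myeloid genes rose less in PCGF1 KO cells. SLPI went from 8.51, 7.02 and 8.66 CPM to 78.1, 68.6 and 79.3 CPM in control cells, a log2 fold change of 3.21 against 1.17 in PCGF1 KO cells, and the difference was -2.04 (SE 0.14, adjusted p by edgeR = 6.74e-10). CHI3L1, a secreted chitinase-like protein of neutrophils and macrophages, went from 85.9 to 356 CPM in control and from 319.7 to 575 CPM in PCGF1 KO cells, a difference of -1.21 (SE 0.13, adjusted p by edgeR = 4.98e-06). In both genes the PCGF1 KO cells with SGC0946 had the highest level of the 4 groups, and their DMSO level was also above that of control cells. MNDA, a nuclear antigen of myeloid cells, followed another pattern: control cells went from 19.7 to 69.6 CPM and PCGF1 KO cells from 30.9 to 33.9 CPM (difference -1.68, SE 0.23, adjusted p by edgeR = 2.03e-04). MMP25, a membrane protease of neutrophils (-2.25), CEBPE (-1.89), MS4A3 (-1.16), MPO (-0.85), CEBPD (-0.77), CYBB (-0.69), S100A6 (-0.66) and RNASE2 (-0.60) also had negative differences. CEBPD and CYBB lost the call in 9 and 5 of the 12 fits that left out 1 library and CEBPE in 1, while MMP25, MS4A3, MPO, S100A6 and RNASE2 kept it in all 12; S100A6 and RNASE2 lost it when only the 4 groups compared were fitted. S100A8 and S100A9, which form calprotectin, rose in control cells, and their differences were called in all 12 fits that left out 1 library. S100A8 had 0.177, 0 and 0.327 CPM with DMSO and 5.42, 5.26 and 6.83 CPM with SGC0946 in control cells, against 3.32, 1.57 and 2.05 CPM and then 3.31, 2.05 and 2.30 CPM in PCGF1 KO cells. S100A9 had 0, 0.201 and 0 CPM and then 5.23, 5.07 and 5.08 CPM in control cells, against 1.04, 1.79 and 1.73 CPM and then 0.710, 1.57 and 1.24 CPM in PCGF1 KO cells. The PCGF1 KO groups overlapped in both genes. All 3 control DMSO libraries were under the floor of 3 counts, so no fold is given for control cells (difference called at an adjusted p by edgeR of 0.00241 for S100A8 and 4.48e-04 for S100A9).

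TBC1D4, TFAP2A, CKAP4 and ATP6V1C2 completed the 6 largest negative differences at 10 CPM or more, and none of them was called in PCGF1 KO cells. Their differences were -2.16, -2.14, -2.06 and -2.47, and those of TFAP2A, CKAP4 and ATP6V1C2 were lost in 1, 3 and 6 of the 12 fits that left out 1 library. TBC1D4, a regulator of glucose transporter traffic, had 19.7, 18.2 and 23.8 CPM with DMSO and 22.3, 19.7 and 18.8 CPM with SGC0946 in PCGF1 KO cells, against 0.532, 1.2 and 0.817 CPM and then 4.30, 3.19 and 3.68 CPM in control cells. TFAP2A, a developmental transcription factor, had means of 17.0 and 15.7 CPM in PCGF1 KO cells and 0.806 and 3.47 CPM in control cells. The groups of PCGF1 KO cells overlapped in both genes, and both stood higher there than in treated control cells. In control cells CCND2 went up from 24.8 to 33.3 CPM, while PCGF1 KO cells had 199.6 and 169.6 CPM, a difference of -0.65 (SE 0.13, adjusted p by edgeR = 0.00754).

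In 3 genes SGC0946 raised the level in PCGF1 KO cells and lowered it in control cells, and the difference was called in each; they were chosen after their values were seen. They were CST7, an inhibitor of granule proteases, ETS2, a transcription factor, and MS4A7, a membrane protein of macrophages. ETS2 stood at 60.5, 49.1 and 40.6 CPM with DMSO and at 70.8, 67.8 and 68.2 CPM with SGC0946 in PCGF1 KO cells, against 103, 87.6 and 111 CPM and then 74.9, 68.2 and 69.1 CPM in control cells. The treated libraries of the 2 kinds of cell overlapped and the untreated ones did not.

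Compared with BCOR KO cells, in which another PRC1.1 subunit was targeted, the response of PCGF1 KO cells differed in 2 genes, or 0.0165% of those tested; 452 had an unadjusted p under the threshold, and DESeq2 and limma-voom called 3 and 2. CHI3L1 went from 56.8, 64.1 and 58.3 CPM to 215, 249.6 and 262 CPM in BCOR KO cells, and from 293, 309 and 357 CPM to 538, 579 and 608 CPM in PCGF1 KO cells (difference -1.17, adjusted p by edgeR = 2.43e-05). MYBPH, a myosin-binding protein that neighbours CHI3L1 on chromosome 1, went from 18.2, 19.0 and 17.9 CPM to 35.7, 32.1 and 39.6 CPM in BCOR KO cells and from 54.7, 52.9 and 57.3 CPM to 56.1, 57.1 and 56.8 CPM in PCGF1 KO cells (-0.92, adjusted p by edgeR = 0.00696). MYBPH lost the call without BCOR KO SGC0946 replicate 3. A count this low does not show that the 2 knockouts responded alike. For MEIS1 the difference was 0.40 (SE 0.27) and for MEF2C 0.03 (SE 0.13), neither of them called.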

How the data were processed

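RNA was measured by 3′ sequencing in 27 MOLM13 libraries, 9 groups of 3. The deposited table holds raw read counts per gene, which the authors made from reads aligned with STAR to GRCh38 (hg38 in the submitters' processing notes). The methods name STAR's own gene counting, while the lines that name no gene have another form; the strand setting is not given in the sources used here. The 5 lines that name no gene, 36.3% to 48.6% of reads, entered neither library sizes nor tests. Of 63152 genes, 12140 had at least 2 CPM in at least 2 libraries and were tested, and 94.0% of them carry a symbol.

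Counts were fitted with edgeR 4.0.16 in R 4.3.3 (limma 3.58.1) as 1 quasi-likelihood model over the 9 groups, with TMM scaling and no block. Genes were called at a Benjamini-Hochberg adjusted p under 0.05 over all genes tested, and response differences are interaction contrasts in the same model. Printed CPM are TMM-scaled, with SD over n = 3. Each SE is the size of the log2 fold change divided by the square root of the test's F. It is an approximation, least reliable for the smallest changes. Library totals ran from 4283204 to 6330489 counts, and the floor of 3 counts covers counting error only. The code was tested on simulated data. No pair of replicates was alike within sampling noise, and control DMSO replicate 2 differed most from its group.

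Groups follow the labels. Named genes were PCGF1, BCOR, DOT1L, MEIS1 and 5 genes the study names for human lines, the 12 farthest in each direction at 10 CPM or more with groups that did not overlap, the 6 (against control) and up to 3 (against BCOR KO) largest response differences in each direction, and called members of the lists. Members and lists were chosen with earlier results of these data known. Alternatives were library-size scaling, DESeq2 1.42.0, limma-voom, no filter, only the groups compared, a replicate block, the study's threshold and each library left out. The VTP50469 libraries entered the model and are not described. Some genes that met these rules are not reported here.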

Additional observations from a re-analysis of the deposited data

Results flagged for a closer look

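The response to SGC0946 differed between PCGF1 KO and control cells in 79 genes by the interaction test in edgeR, and between PCGF1 KO and BCOR KO cells in 2. Values are differences of log2 fold change, PCGF1 KO minus control, for the named genes among the 79. Among leukaemia and developmental genes the difference was 0.84 for MEF2C, 0.92 for HOXA10, 0.93 for HOXA9, 0.96 for BMI1, 1.27 for SOCS2, 1.34 for MEIS1, 1.35 for EFNA5, 1.69 for BARX1 and 2.50 for MIR1915HG. It was 0.54 for MS4A6A, 1.28 for CST7, 1.38 for SORL1, 1.41 for ENPP2 and 1.43 for SPIB.

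Among myeloid genes the difference was -2.25 for MMP25, -2.04 for SLPI, -1.89 for CEBPE, -1.68 for MNDA, -1.21 for CHI3L1, -1.16 for MS4A3, -0.85 for MPO, -0.78 for PRAM1, -0.77 for CEBPD, -0.69 for CYBB, -0.66 for S100A6 and -0.60 for RNASE2. For other genes it was -2.47 for ATP6V1C2, -2.16 for TBC1D4, -2.14 for TFAP2A, -2.06 for CKAP4, -0.76 for MYBPH and -0.65 for CCND2. For S100A8 and S100A9 the fitted differences were -4.75 and -6.28; their control DMSO libraries were under 3 counts, so these values depend on the prior count and are no bound. Of 34 named genes with a called difference, 19 kept it in every fit that left out 1 library. Against BCOR KO the difference was -1.17 for CHI3L1 and -0.92 for MYBPH.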

How the results depend on the processing

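The 378 genes changed in PCGF1 KO cells became 230 when only the groups compared were fitted, and 220 to 329 with 1 library left out. The 1578 of control cells became 505 and 1044 to 1686, the lowest without control SGC0946 replicate 3. The 79 response differences against control became 191 with no filter, 18 with only the groups compared, 120 at the study's threshold, and 56 to 84 with 1 library left out. The 2 against BCOR KO became 51 with no filter, 5 at the study's threshold, and 1 to 3 with 1 library left out. The causes were not tested. Fits of only the groups compared hold fewer libraries, and their filter, scaling and estimate of spread were made from those libraries alone. Library-size scaling turned the control split from 878 higher and 700 lower to 724 and 927. With no filter, the differences against control went from 27 higher and 52 lower to 97 and 94, and those against BCOR KO from 0 and 2 to 27 and 24. No named gene's value changed sign where the main fit or the alternative called it. Without a call, the PCGF1 log2 fold change in PCGF1 KO cells ran from -0.13 to 0.48 with 1 library left out. Its response difference against control ran from -0.31 to 0.29. Same-numbered libraries had r = 0.11, -0.04 and 0.12 in PCGF1 KO, 0.00, 0.13 and 0.12 in control and 0.05, 0.11 and 0.11 in BCOR KO cells, with 4, 4 and 6 of 6 libraries closest to their own number. Not every r was over 0.1, so the numbers were not taken as pairing; replicate 3 had the lowest mitochondrial share in all 9 groups, and whether a number marks a shared batch is not stated. With the replicate block the counts were 483, 1932, 104 and 3. The block took none of the named calls away. Depth limits genes near 3 counts, or 0.472 to 0.710 CPM, where a change may not be detectable.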
